A study of Schizosaccharomyces pombe with 8 samples.

Results

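Contacts between 2 stretches of cold DNA, the DNA that the authors do not class as hot, were described along the chromosomes of fission yeast (Schizosaccharomyces pombe) in meiosis. A cold to cold contact was a ligated pair of DNA ends on 1 chromosome, 5 to 200 kb apart, with both ends in the authors' class cold (the rule behind hot and cold is not given in the sources used here). Pairs whose ends both lay within 500 bp of those of another pair were counted once, as 1 ligation event. This gave 2551 events, 1797 in the library ligated while crosslinked and 754 in the library ligated after crosslink removal, out of 92096 events in all (35781 and 56315). The events held 6635 of 101984 and 1667 of 123434 deposited pairs.

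Both libraries came from cells of genotype pat1-114 rec12D carrying Rec27 fused to GFP, starved of nitrogen for 18 h and harvested 3.5 h after nitrogen was restored at 34 °C. The pat1-114 allele lets meiosis be started by a shift in temperature, and rec12D deletes the gene for the Spo11-like enzyme of meiotic break formation, so the contacts were measured without those breaks in both groups. After fixation with formaldehyde, Rec27-GFP was immunoprecipitated from sheared chromatin, and the DNA was ligated either still crosslinked (the interacting library) or after the crosslinks had been removed (the de-crosslinked library). Each group was 1 library with no replicate, so every test below compares these libraries and not the conditions, and all intervals cover counting error only.

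Fission yeast builds linear elements, a proteinaceous axis made of Rec10, Rec25, Rec27 and Mug20, in place of the synaptonemal complex of most other organisms. Rec27 lies thickly at hotspots of meiotic recombination, and the meiotic cohesins Rec8 and Rec11 help to load it. DNA segments that lie near each other on a chromosome are also joined more often than distant ones in any crosslinked chromatin, whatever protein is bound.

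Sequences at the ends of cold contacts are printed here from RefSeq ASM294v3, 5′ to 3′, to show which of them are alike. The first set is the glycoprotein gene SPBPJ4664.02 on the plus strand of chromosome II, at chrII:689080-689330 and chrII:695416-695666, the place joined to itself most often. Capitals mark a stretch of 211 bp that both places share.

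SPBPJ4664.02, first repeat: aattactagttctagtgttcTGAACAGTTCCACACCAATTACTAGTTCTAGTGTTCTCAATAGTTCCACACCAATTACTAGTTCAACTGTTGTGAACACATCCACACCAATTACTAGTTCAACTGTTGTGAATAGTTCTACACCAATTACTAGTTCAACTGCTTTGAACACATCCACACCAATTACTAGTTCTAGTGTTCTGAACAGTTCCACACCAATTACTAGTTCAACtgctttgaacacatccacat
SPBPJ4664.02, second repeat: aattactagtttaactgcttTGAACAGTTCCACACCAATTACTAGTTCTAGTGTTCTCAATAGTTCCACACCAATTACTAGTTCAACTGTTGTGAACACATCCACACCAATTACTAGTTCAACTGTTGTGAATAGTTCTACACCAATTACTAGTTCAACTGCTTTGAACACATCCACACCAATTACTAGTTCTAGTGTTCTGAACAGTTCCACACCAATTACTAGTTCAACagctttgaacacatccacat

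The second set is the pair of neighbouring amino acid permease genes SPBC359.01 (chrII:106446-106657, plus strand) and aat1 (chrII:111519-111730, minus strand), whose contact held more pairs than most. Capitals mark the 172 bp that the 2 genes share, read along the coding strand of each.

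SPBC359.01: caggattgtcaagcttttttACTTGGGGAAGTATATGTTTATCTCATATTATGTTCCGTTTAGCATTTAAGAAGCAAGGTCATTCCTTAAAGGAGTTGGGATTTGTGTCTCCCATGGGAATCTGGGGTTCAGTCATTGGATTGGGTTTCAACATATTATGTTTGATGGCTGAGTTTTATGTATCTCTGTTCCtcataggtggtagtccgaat
aat1: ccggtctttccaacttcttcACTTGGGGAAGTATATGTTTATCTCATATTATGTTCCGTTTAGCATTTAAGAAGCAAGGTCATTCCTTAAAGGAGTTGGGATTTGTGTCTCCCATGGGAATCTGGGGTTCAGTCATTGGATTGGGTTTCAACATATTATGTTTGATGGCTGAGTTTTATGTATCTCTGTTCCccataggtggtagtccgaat

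The third set is bag102, a co-chaperone gene (chrII:791615-791764), and git7, a gene needed for glucose sensing (chrII:865850-865999), both read on the plus strand. Their contact, 1 event of 13 pairs, stands for pairs of 10 kb windows joined by 3 events with no such shared stretch. The capital letter marks the median position of the event's pairs at each end.

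bag102: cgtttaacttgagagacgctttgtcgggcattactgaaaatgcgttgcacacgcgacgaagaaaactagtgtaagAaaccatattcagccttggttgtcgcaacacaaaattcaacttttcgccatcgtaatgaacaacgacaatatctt
git7: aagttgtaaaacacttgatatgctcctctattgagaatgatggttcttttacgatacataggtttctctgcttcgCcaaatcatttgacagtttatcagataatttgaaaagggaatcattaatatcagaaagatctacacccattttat

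The extent of cold DNA was read from the classes of the ends themselves, which is no independent check of the class. Runs of hot ends, unbroken by a cold one, gave 451 hot regions with a median of 5314 bp, and the 9691 kb outside them made up 77.1% of the genome. That DNA held 66.6% of interacting and 61.6% of de-crosslinked ends, fewer than its share of the genome. The genome was counted with 157 stretches that lack a unique 50 bp word (391234 bp), where no end lies. Their part in that gap was not tested. Between neighbouring hot regions lay 448 cold stretches with a median of 13.5 kb, the longest 106 kb. The labelled genotype was visible in the ends, since rec12, which is deleted (chromosome I, 1772925 to 1774203), had 1 end per library and rec8, the meiotic cohesin gene, 36 and 34.

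Cold to cold events were 5.02% of all interacting events (exact Clopper-Pearson 95% interval 4.80 to 5.25) and 1.34% of all de-crosslinked events (1.25 to 1.44). An interacting event held more pairs, 3.69 on average against 2.21, and 819 of the 1797 (45.6%) rested on 1 pair, against 464 of 754 (61.5%). The largest event held 112 interacting pairs, and the largest de-crosslinked event 41. Single pairs just inside the limits had ends 5000 and 5042 bp apart at the short end and 199646 and 199749 bp at the long end (interacting first). Just outside were 4997 and 4965 bp, and 200273 and 200487 bp.

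How far cold contacts reach was asked first. Among cold to cold events on 1 chromosome, 1797 of 6457 lay within 200 kb in the interacting library, 27.8% (26.7 to 28.9). In the de-crosslinked library the count was 754 of 7829, 9.63% (8.99 to 10.3). The log2 odds ratio, which sets the odds of a near event in the interacting library over those in the de-crosslinked one, was 1.86 ± 0.07 (SE; two-sided Fisher's exact test, p = 1.5e-177). Interacting events had a median distance of 30.6 kb, with quartiles of 14.1 and 68.4 kb. De-crosslinked events had one of 91.6 kb, with quartiles of 44.7 and 144 kb.

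Interacting events were most numerous, against the de-crosslinked ones, at short range. From 5 to 10 kb there were 268 interacting and 43 de-crosslinked events, from 10 to 20 kb 377 and 48, and from 20 to 50 kb 544 and 123. From 50 to 100 kb the counts were 327 and 198. From 100 to 200 kb the order turned, with 281 interacting and 342 de-crosslinked events.

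Set against cold to cold events farther apart or between chromosomes, which numbered 13276 and 20498, all 5 distance classes were higher in the interacting library. The class of 5 to 10 kb had a log2 odds ratio of 3.27 ± 0.24, that of 10 to 20 kb 3.60 ± 0.22 and that of 20 to 50 kb 2.77 ± 0.14. From 50 to 100 kb it was 1.35 ± 0.13, and in the last class, from 100 kb to 200 kb, 0.34 ± 0.12, where the adjusted p was 0.00375 (Fisher's exact test, Benjamini-Hochberg over the 5 classes). As plain odds ratios these were 12.1 in the class from 10 kb and 1.27 in the last.

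A second scale needs no other library, namely the number of events that would fall at each distance if a library's own ends were joined without regard to place. On this scale the interacting events from 5 to 10 kb stood at 23.0 times random joining (exact Poisson 95% interval 20.4 to 26.0), and those from 10 to 20 kb at 16.4 times (14.8 to 18.1). The ratio was 7.90 between 20 and 50 kb, then 2.87 between 50 and 100 kb, and 1.25 between 100 and 200 kb (1.10 to 1.40). From 200 to 500 kb the ratio was 0.942 (0.869 to 1.02), with an interval that includes random joining.

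De-crosslinked events lay close to random joining from 100 kb on, with a ratio of 1.05 (0.944 to 1.17). Nearer than that they exceeded it, with a ratio of 2.59 between 5 and 10 kb (1.87 to 3.49), then 1.46 between 10 and 20 kb (1.07 to 1.93). In steps of 10 kb the interacting ratio was 10.6 in the step from 20 kb, 5.83 from 40 kb, 3.79 from 50 kb and 2.49 from 80 kb. It was still 2.24 in the step from 100 kb (1.67 to 2.95) and 1.47 in that from 120 kb (1.01 to 2.06). The step from 90 kb lay below that from 100 kb, at 1.51 (1.04 to 2.10). Of the 7 steps from 130 kb on, the intervals included 1 except in the step from 160 kb, which was lower at 0.577 (0.307 to 0.986). Short events held more pairs each in both libraries, 5.19 below 10 kb against 2.66 above 100 kb for interacting and 3.26 against 1.94 for de-crosslinked events.

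**Figure D1:**
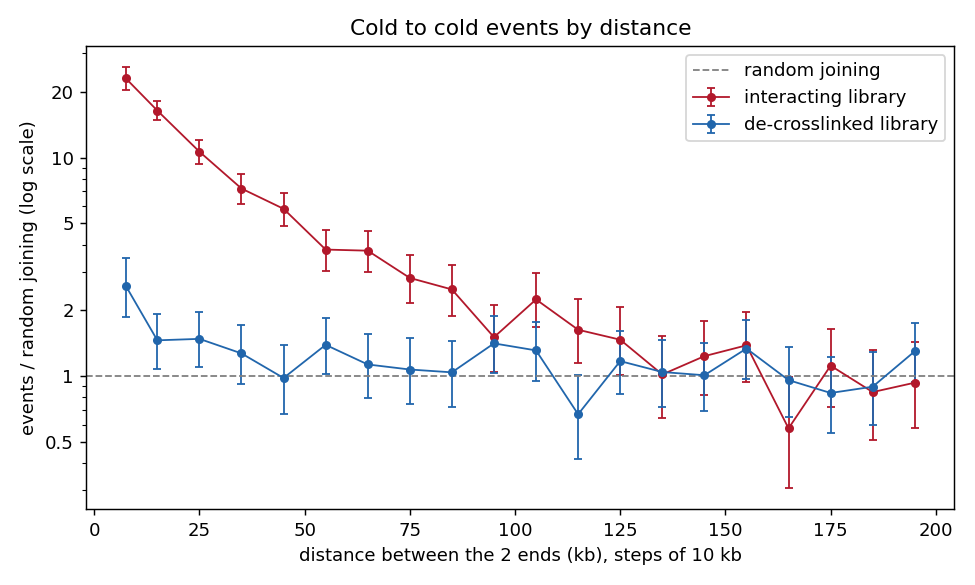
Cold to cold events over the number given by random joining of each library's own ends (y axis, log scale), in steps of distance between the ends (x axis, kb), for the interacting and the de-crosslinked library. Points are ratios of counts and bars are exact Poisson 95% intervals; the interacting ratio drops from 23.0 at 5 to 10 kb to 1.02 at 130 to 140 kb, whereas the de-crosslinked one goes from 2.59 to 1.04.

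The same held on each chromosome taken by itself. On chromosome I, 832 of 3339 interacting cold to cold events (24.9%) and 317 of 4120 de-crosslinked ones (7.69%) lay within 200 kb, a log2 odds ratio of 1.99 ± 0.10. On chromosome II the counts were 633 of 2320 (27.3%) and 290 of 2897 (10.01%), at 1.75 ± 0.11. On chromosome III, the shortest, they were 332 of 798 (41.6%) and 147 of 812 (18.1%), at 1.69 ± 0.17, and all 3 passed after Benjamini-Hochberg adjustment (Fisher's exact test, largest adjusted p = 2.61e-25).

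Interacting events had 38.7, 35.8 and 35.8 ends per 100 kb of cold DNA on chromosomes I, II and III, and de-crosslinked events 14.7, 16.4 and 15.9. The median distance on these chromosomes was 28.8, 28.9 and 35.9 kb for interacting events. For de-crosslinked events it was 91.7, 93.2 and 85.7 kb.

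Cold contacts were then set against contacts with hot ends, to ask whether the excess depends on hot DNA. This excess was present between cold ends, but smaller than between hot ends. Whether it depends on hot DNA was not tested, and 1167 of the 1797 interacting cold to cold events had a hot region between their ends. From 20 to 200 kb the log2 odds ratio was 1.42 ± 0.07 for cold to cold events (1152 interacting, 663 de-crosslinked) and 2.11 ± 0.12 for hot to hot events (473 and 222). The difference, cold to cold minus hot to hot, was -0.69 ± 0.14 (z test on the difference of log odds ratios, p adjusted over 4 comparisons = 3.59e-06).

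By log2 odds ratio, hot to cold events stood between them at 1.70 ± 0.07 (1208 and 705 events). Cold to cold events were lower by a difference of -0.28 ± 0.10 (same test, a chi-square test on event counts in its squared form, adjusted p = 0.00788). This call was lost with chromosome II left out, at -0.21 (chi-square form, adjusted p = 0.208). At 50 to 100 kb the log2 odds ratio was 1.35 ± 0.13 for cold to cold, 1.89 ± 0.13 for hot to cold and 2.73 ± 0.23 for hot to hot events. Over random joining, the interacting ratio was 23.0 for cold to cold and 21.6 for hot to cold events at 5 to 10 kb. It was 16.4 and 13.2 at 10 to 20 kb, and 7.90 and 7.14 at 20 to 50 kb. At 50 to 100 kb the order turned, at 2.87 and 2.95, and at 100 to 200 kb it was 1.25 and 1.13. These intervals overlapped except at 10 to 20 kb. The de-crosslinked ratio was also higher for cold to cold events, for example 2.59 against 1.72 at 5 to 10 kb. The order of cold to cold and hot to cold events thus rests on the scale. That of hot to hot events did not, since their interacting ratio over random joining was the highest in each of these classes. For example, it was 32.1 at 5 to 10 kb (26.6 to 38.4) and 5.17 at 50 to 100 kb (4.41 to 6.03). The intervals of hot to hot and cold to cold events overlapped only at 10 to 20 kb.

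At 5 to 20 kb the log2 odds ratio was 3.45 ± 0.16 for cold to cold (645 and 91 events), 3.72 ± 0.16 for hot to cold (633 and 91) and 4.43 ± 0.32 for hot to hot events (244 and 23). Cold to cold minus hot to hot was -0.98 ± 0.36 (chi-square form, adjusted p = 0.00788). It rests on 23 de-crosslinked hot to hot events, and the call was lost with chromosome II left out, at -0.35 (chi-square form, adjusted p = 0.503), and with copies merged within 2000 bp, at -0.49 (adjusted p = 0.23). Cold to cold minus hot to cold was -0.27 ± 0.23 and did not pass (chi-square form, p = 0.238). The median distance of interacting events differed little among the classes, at 30.6 kb for cold to cold, 32.4 kb for hot to cold and 33.1 kb for hot to hot events.

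**Figure D2:**
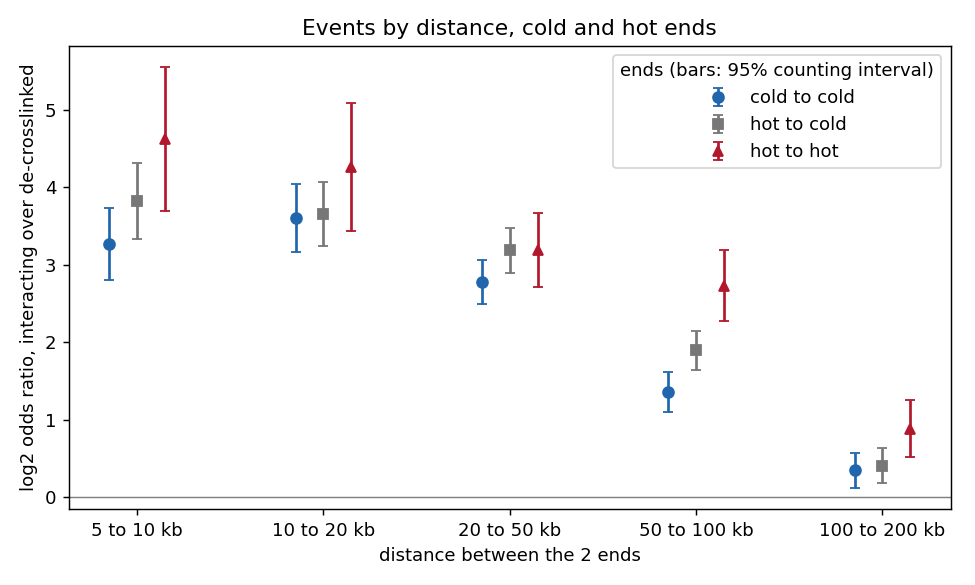
Log2 odds ratio of events at each distance over events farther apart or between chromosomes, interacting over de-crosslinked library (y axis), by distance class (x axis), for cold to cold, hot to cold and hot to hot events. Bars are 95% counting intervals; the cold to cold point is the lowest in each class, though intervals overlap in several, at 1.35 against 2.73 for hot to hot at 50 to 100 kb.

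Whether the libraries differ in how often a hot region lies between the ends of a cold contact was asked next. An event spans a hot region when at least 1 of the 451 lies between its ends. Counted over all distances, 1167 of 1797 interacting events (64.9%) and 648 of 754 de-crosslinked events (85.9%) did so, the de-crosslinked events being longer. Within distance classes no difference between the libraries passed the test, with a stratified log2 odds ratio of -0.07 (Mantel-Haenszel chi-square test, p = 0.766).

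At 10 to 20 kb, 150 of 377 interacting events (39.8%, 34.8 to 44.9) and 18 of 48 de-crosslinked events (37.5%, 24.0 to 52.6) spanned a hot region. From 20 to 50 kb the shares were 72.1% (392 of 544) and 78.0% (96 of 123). From 50 to 100 kb the shares were 97.2% and 95.5%, which leaves little room for a difference. Beyond 100 kb all 281 and 342 events spanned at least 1. The longest cold stretch between neighbouring hot regions was 106 kb, so this class could hardly come out otherwise and cannot compare the libraries. The median number of hot regions crossed was the same for interacting and de-crosslinked events within each of the 5 classes, at 0, 0, 1, 2 and 5 from the shortest to the longest, and the most crossed were 12 and 14. A share of 37.5% from 48 events leaves a wide interval, so a modest difference could not be detected at this depth.

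**Figure D3:**
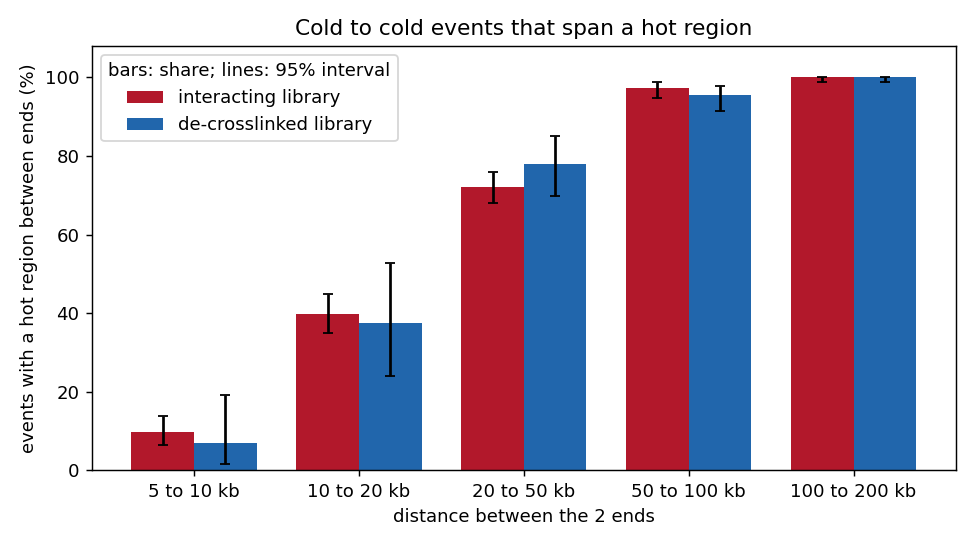
Share of cold to cold events with at least 1 hot region between their ends (y axis, percent), by distance class (x axis), in both libraries. Bars are shares and lines exact Clopper-Pearson 95% intervals; the intervals of the libraries overlap in every class, for example 39.8% and 37.5% at 10 to 20 kb. At 100 to 200 kb both are 100%, the longest cold stretch between hot regions being 106 kb.

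Cold ends were also placed by their distance to the nearest hot region, and no distance class passed the test between the libraries. Within 2 kb of a hot region lay 18.8% of the 3594 interacting ends (17.5 to 20.1) and 18.2% of the 1508 de-crosslinked ends (16.3 to 20.3), where 16.7% of cold DNA lies. For cold to cold events over 200 kb apart the shares were 17.5% and 17.9%. At 10 kb or more from any hot region lay 37.6% and 40.8% of ends, against 41.3% of cold DNA. That was the widest gap between the libraries of the 4 distance classes, and it did not pass (Fisher's exact test, p = 0.0296, adjusted p = 0.118). Cold DNA was counted with the stretches that lack a unique 50 bp word, where no end lies. Their part in shares below that of cold DNA was not tested.

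Cold ends were placed on the gene annotation, in which most cold DNA is coding gene. Both ends lay in the body of protein-coding genes, introns and untranslated parts included, in 1243 interacting events (69.2%) and 521 de-crosslinked events (69.1%). Neither end did in 64 (3.56%) and 40 (5.31%). Single ends lay in coding genes at 82.8% and 81.9%, against 79.8% of cold DNA and 82.0% and 83.6% of the ends of cold to cold events over 200 kb apart.

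Gaps between genes were split by the direction of the flanking genes. Gaps between convergent genes held 1.42% of interacting and 1.13% of de-crosslinked ends, against 2.11% of cold DNA. Gaps between divergent genes, which hold promoters, held 6.34% and 7.63%, against 7.97%. Long terminal repeats, remnants of Tf retrotransposons, lay within 500 bp of 2.00% and 2.85% of ends, against 2.30% of cold DNA, and tRNA genes of 0.723% and 0.729%, against 1.30%. Here too cold DNA included the stretches that lack a unique 50 bp word, where no end lies. Shares below that of cold DNA therefore cannot be read as depletion. None of the 7 annotation classes passed the test between the libraries (Fisher's exact test, adjusted p from 0.344 to 1).

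**Figure D4:**
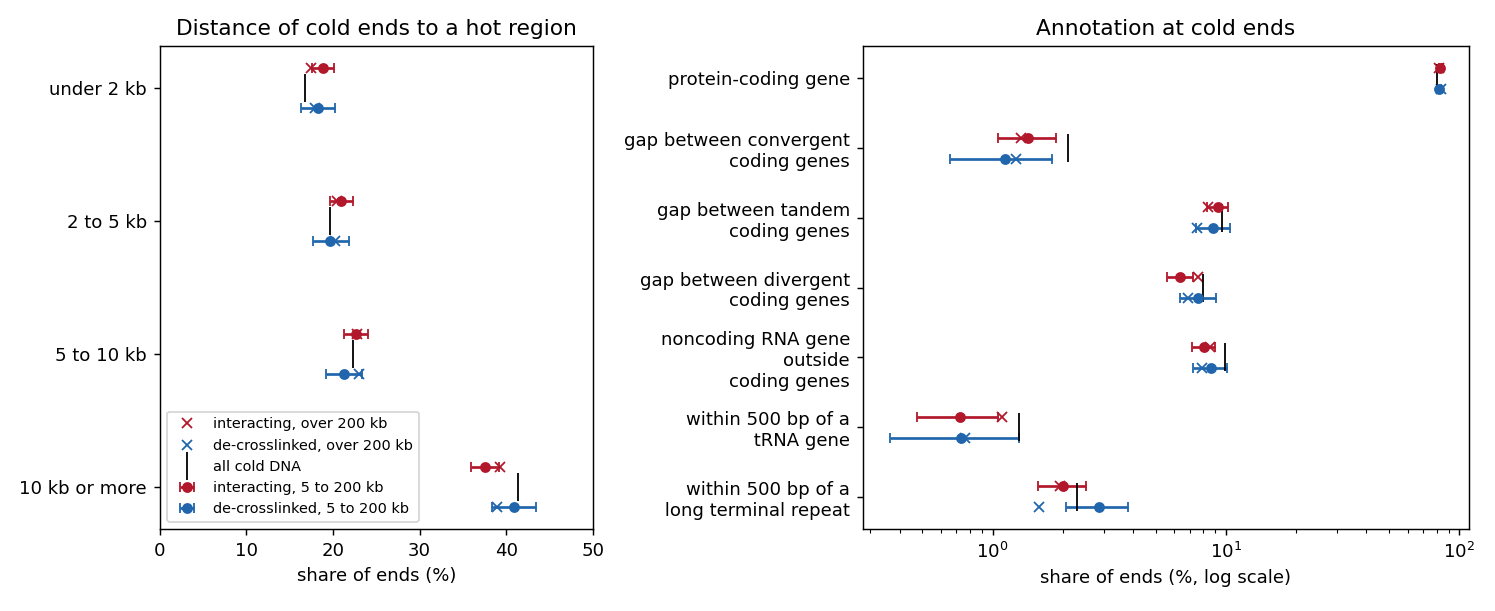
Share of cold ends (x axes, percent, log scale on the right) by distance to the nearest hot region (left) and by annotation (right). Circles are events of 5 to 200 kb with exact Clopper-Pearson 95% intervals, crosses are cold to cold events over 200 kb apart, and black bars are the share of all cold DNA; the libraries' intervals overlap in every class, for example 18.8% and 18.2% of ends under 2 kb.

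Base composition and a hotspot motif were read around the ends. Over 1001 bp centred on the end, GC content was 36.2% ± 3.62 (SD over 3594 interacting ends) and 36.12% ± 3.61 (SD over 1508 de-crosslinked ends), and 36.0% over cold DNA. The heptamer ATGACGT, the core of the binding site of the Atf1-Pcr1 factor at the M26 class of hotspots, was searched on both strands in 300 bp around each end. It was in 28 windows of interacting ends (0.779%, 0.518 to 1.12) and 12 of de-crosslinked ends (0.796%, 0.412 to 1.39). Tiles of 300 bp held it at 0.520% in cold DNA, 1.11% in hot regions and 0.656% in the genome, and hot to hot events held it at 1.95% of interacting ends (1.30 to 2.81) and 1.02% of de-crosslinked ends (0.332 to 2.37).

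Interacting events were found in every full window of 100 kb, but unevenly. Some windows with much cold DNA held few, such as chromosome I, 3700001 to 3800000 (3 events, 93.7 kb cold). Others were chromosome II, 1 to 100000 (6 events, 95.3 kb) and chromosome III, 1100001 to 1200000 (5 events, 90.4 kb). Of 124 full windows of 100 kb, 117 held more interacting than de-crosslinked events, 5 the same number and 2 fewer. The lowest, median and highest window held 1, 14 and 27 interacting and 0, 6 and 13 de-crosslinked events. At least 2 times as many interacting events were found in 77 windows (62.1%), with 2.38 times as many in all.

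The highest windows were chromosome I, 4300001 to 4400000, with 27 against 2 events, and chromosome II, 900001 to 1000000, with 27 against 11. Fewer interacting events were found at chromosome II, 1600001 to 1700000 (5 against 8) and 3300001 to 3400000 (6 against 7). The variance of the counts over windows was 2.02 times the mean in the interacting library and 1.13 times in the de-crosslinked library. For the same unevenness this ratio rises with the count, and the median counts were 14 and 6. It therefore does not show in which library events are less evenly placed.

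**Figure D5:**
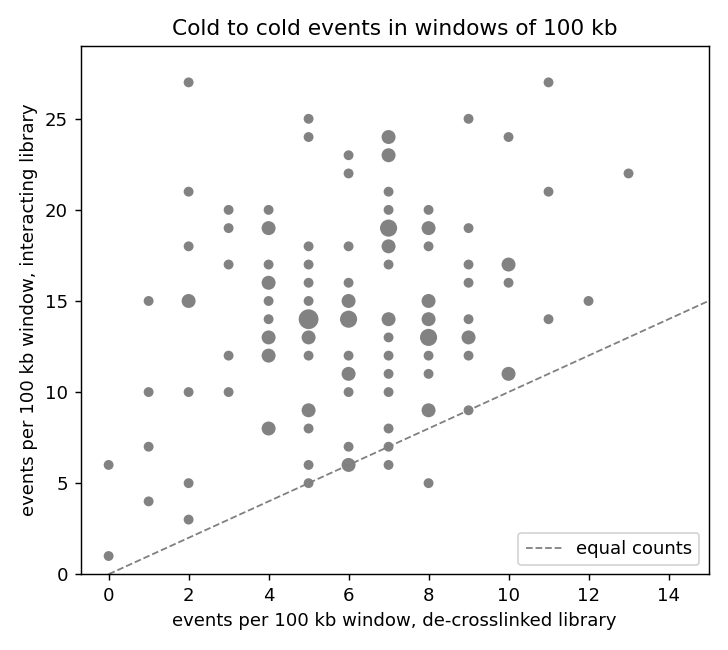
Cold to cold events in each full window of 100 kb in the interacting (y axis) and the de-crosslinked library (x axis), with larger dots where several windows share both counts. The dashed line marks equal counts; 117 of 124 windows lie above it.

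Of 1258 windows of 10 kb, 1085 (86.2%) held an interacting end and 815 (64.8%) a de-crosslinked one. The 5 windows with most interacting ends were named by their gene with most ends per kb. A window of chromosome I (1690001 to 1700000) around tim14, a subunit of the mitochondrial import motor, held 14 interacting ends and 1 de-crosslinked end. That of air1, a subunit of the RNA-degrading TRAMP complex, held 12 and 0 (chromosome II, 980001 to 990000). The gene air1, which begins before the window, held 2 and 0, and mit1, a longer gene inside the window, 6 and 0.

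The window of uap56, an RNA helicase of mRNA export, held 11 and 0 (chromosome I, 3610001 to 3620000). That of wdr55 (chromosome I, 1060001 to 1070000) held 11 and 2, and the gene, which runs past the window, held 5 and 0. That of are1, a sterol acyltransferase gene (chromosome I, 2300001 to 2310000), held 11 and 3. These windows were ranked by the interacting count, so their excess over the de-crosslinked library is set by the choice.

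Which places were joined more than once was read from pairs of 10 kb windows. Of 24530 pairs of windows within reach, 25 (0.102%) were joined by 3 or more interacting events and 1 (0.00408%) by 3 or more de-crosslinked events. Joined by 2 or more were 176 and 22. The counts rest on how copies are merged, since with merging within 2000 bp 9 and 0 pairs of windows reached 3 events. The only pair of windows to reach 3 events in the de-crosslinked library was also the first in the interacting one, with 4 and 3 events.

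That pair lay within a single gene, SPBPJ4664.02 (chromosome II, 687716 to 699886, 12171 bp), printed above. Its 4 interacting events joined positions 688850 with 697236, 688858 with 698064, 689096 with 695477 and 689771 with 697425, over 6.38 to 9.21 kb. Each held 2 to 5 pairs, and 3 of them recurred in the de-crosslinked library within 500 bp at both ends. The gene is made of internal repeats, in which the word CACACCAATTACTAGTTC occurs 177 times, most often 36 bp apart, and in no other place of the genome. The shared stretches at the joined places were 91 to 211 bp long. This word was chosen after the events were seen.

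The next 21 pairs of windows tied at 3 interacting events and 0 de-crosslinked ones, and were ordered by chromosome and position, so those named first are all on chromosome I. The first of these held sid2 (221694 to 223953), a kinase of septation, and dnf2 (224080 to 229236), a phospholipid flippase. Their 3 events reached lyr3, at 245892 and 247106, and the γ-tubulin complex gene mod21, at 249408, over 18.3 to 24.9 kb. In the second pair, cpn1, rcl1 and mcp60 were joined to the actin nucleator gene arp3, the GTPase activator gene gyp7 and a place next to sea4, over 10.2 to 17.8 kb.

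The acetyl-CoA carboxylase gene cut6, which makes the precursor of fatty acids, held an end of 2 events, joined to ggt2 and SPAC56E4.07 over 10.2 and 11.95 kb. Another event of that pair ran between places next to SPAC10F6.17C and snd2. The purine synthesis gene ade3 (1329091 to 1333320) was joined to rna14, a gene of mRNA 3′ end processing, and to a place next to fps1, and par2 to a place next to rna14. All 3 interacting events of the next pair began in uap56 (3617071 to 3618875), at 3617981, 3618053 and 3618274. They ended next to noc201, in get3 and in swi2, the recombination mediator of mating-type switching, 11.97 to 20.3 kb away.

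Likewise all 3 events of another pair began in the cyclin-dependent kinase gene lsk1 (3953796 to 3956869) and ended in pfl2, in 2 events, and SPAPB18E9.04C, 30.3 to 32.8 kb away. Each rested on 1 pair, and the 2 pfl2 events, at 3955015 with 3987813 and 3955644 with 3987573, lay just outside the merging distance. The last 3 of the first 10 pairs met at bbc1 (chromosome I, 4106648 to 4112044), an SH3 domain gene of the actin cytoskeleton. It held 8 interacting ends and 0 de-crosslinked ones. Among these were events that joined it on 1 side to rnf170, a place next to rpl3401 and frs1, and on the other to mrp51 and the RecQ helicase gene hrq1. Its events also reached the telomere protection gene pot1 and a place next to mga2, 17.5 to 18.4 kb away.

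Pairs of windows joined again over a longer reach were picked out after their values were seen. On chromosome II, bag102 was joined to git7 and to SPBC36.11, and mod5, an anchor of the cell polarity factor Tea1, to ups2. These 3 interacting events spanned 65.9 to 74.2 kb and held 13, 10 and 1 pairs, with 0 de-crosslinked events. A place next to SPBP19A11.07C, a place next to oxa102 and spe2, a gene of polyamine synthesis, were joined to SPBC1703.09, ubp9 and the overlapping genes acl1 and fau1, over 53.6 to 64.0 kb. No shared word of 20 bp or more lay at the ends of these 6 events.

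The genes of the axis itself and of related machines were read from lists. A gene counted when an interacting or de-crosslinked end lay in it or within 500 bp, which held for 2676 of 5113 protein-coding genes (52.3%) for interacting and 1507 (29.5%) for de-crosslinked ends. Of 15 genes of linear elements, meiotic cohesin and break formation, 7 had an interacting and 5 a de-crosslinked end, near those shares. Among them hop1, an axis HORMA protein gene, had 4 and 0, rec25 3 and 1, rec27 2 and 1, and rec10, which anchors the linear elements, 1 and 1. The cohesin gene rec8, psc3 and rec24 had 1 and 0 each. The other way went rec14 and mde2, with 0 and 1 each. The genes rec11, rec15, mek1 and mug20 had none in either library. Nor had rec7 and rec12, which touch hot regions, and rec12 is deleted in these cells.

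Of 13 genes of condensin, cohesin and cohesin loading, 12 had an interacting and 7 a de-crosslinked end. Here cut3, an SMC subunit of condensin, had 4 and 0, cnd3 3 and 0, and the cohesin loader gene mis4 and the cohesin release gene wpl1 3 and 2 each. Only cnd2 had none. The genes of this list had a median length of 3757 bp, against 1773 bp over all protein-coding genes, and 1 of the 13 touched a hot region, against 1602 of the 5113. The part of length and place in the count was not tested.

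Histone genes had an interacting end in 5 of 10 and a de-crosslinked end in 4 of 10, and 4 of the 10 touched a hot region. The H2B gene htb1 had 3 and 1, hta1 2 and 2, and hht1 0 and 2. Genes used as genetic markers had one in 7 and 5 of 16, and 5 of the 16 touched a hot region, where cold ends are limited by definition. The genes ura4, his3 and lys1 had none in either library, nor had ade6, leu1, his5 and lys4, which touch hot regions. The cell wall synthase gene ags1, annotated with the synonym tps16, had 4 and 4.

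A small group of cold contacts had the same sequence at both ends. A shared word of at least 20 bp within 500 bp of both ends was found in 28 of 1797 interacting events (1.56%, 1.04 to 2.24) and in 28 of 754 de-crosslinked events (3.71%, 2.48 to 5.32). Beyond 200 kb on 1 chromosome the shares were 2.40% (112 of 4660) and 0.989% (70 of 7075). With these events left out all 5 distance classes still passed the test, with a log2 odds ratio of 3.47 at 5 to 10 kb and 1.91 for the share within 200 kb.

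Such contacts lay within SPBPJ4664.02, between members of gene families and at other places, such as one between the places whose nearest coding genes are rpb1 and yox1 (427 bp shared). SPBC359.01 and aat1, printed above, were joined by 2 interacting events of 74 and 11 pairs and by 1 de-crosslinked event of 41 pairs, at places that share 172 bp or 68 bp. Another interacting event, of 1 pair, ended next to aat1 and shared no such word. On chromosome III, wtf genes, a family of meiotic drivers that kill spores, were at or nearest to an end of 10 of the 12 interacting and 6 of the 9 de-crosslinked events with such a word.

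The subtelomeric place between SPBCPT2R1.04C and tlh2, a telomere-linked helicase gene, was joined by 10 interacting and 7 de-crosslinked pairs and shares 114 bp. Positions in near-identical copies may be uncertain, since how reads that match both copies were placed is not given in the sources used here. No end lay in a stretch of 500 bp or more without a unique 50 bp word, but shorter stretches were not checked.

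Events found in both libraries, within 500 bp at both ends, numbered 18, which is 1.00% of the interacting and 2.39% of the de-crosslinked events. A shared word of 20 bp or more lay at 13 of the 18. The other 5 joined rad4 with met9, arc5 with shg1, rpl3202 with hob2, dis1 with SPCC594.02C and gsf2 with sum3, over 5.11 to 80.9 kb in the interacting library.

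Contacts within a single gene numbered 10 among interacting and 5 among de-crosslinked events. All 5 de-crosslinked ones were in SPBPJ4664.02. The interacting ones were 4 in SPBPJ4664.02, 2 in sib1, a siderophore synthetase gene of 15.2 kb, and 1 each in mdn1, bgs4, mak3 and the fatty acid synthase gene fas1. The sib1 events spanned 6.88 and 10.6 kb, and that of the glucan synthase gene bgs4 held 15 pairs over 5.29 kb.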

How the data were processed

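The authors' deposited tables hold 1 line per ligated pair, with chromosome, position and class (hot or cold) of each end. The submitters' processing notes name CASAVA 1.8.0. Not given in the sources used here are the genome build, the aligner and how ends were classed as hot or cold. Per the labels' protocols, chromatin was sheared to about 1000 bp, and the ligated DNA was amplified and then fragmented to about 300 bp, so 1 junction can give several pairs. Pairs were therefore counted here as events, merged through any pair with both ends within 500 bp. The 2 Rec27-GFP libraries were used, 1 per group, and the other 6 samples were not analysed here.

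Positions were checked against RefSeq ASM294v3. Its 157 stretches without a unique 50 bp word (391234 bp) held 0 ends as given, but 478 and 664 after moving the positions by -100 and 100 bp. One position lies 22 bp past the end of chromosome II. Positions are printed as deposited, with the genes of ASM294v3.

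Hot regions were runs of hot ends over both tables. The tests between libraries were Fisher's exact test (two-sided), a Mantel-Haenszel test over distance classes and a z test for differences of log2 odds ratios with counting standard errors, with Benjamini-Hochberg adjustment and a threshold of 0.05. Random joining was computed exactly from the ends of each library, hot ends included. Shares have exact Clopper-Pearson and counts exact Poisson 95% intervals. Pairs carry no molecular identifiers, so intervals cover counting error only. The scripts (Python 3.11.15, NumPy 2.4.6, SciPy 1.17.1, pandas 2.3.3) were tested on simulated data.

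Genes named are those at the ends of the 10 pairs of 10 kb windows with most interacting events, ties by fewer de-crosslinked events and then position, those with most ends per kb in the 5 highest single windows, and members of 4 lists. The contacts and lists were chosen with earlier results of these data known. The shared-word measure, the longer-reach pairs, the contacts within single genes and the genes with most ends were chosen after these data were seen. Alternatives changed the merging distance, the smallest distance, the chromosomes, the margin to hot regions, the hot regions, the pairs per event and the window size. One contact is not reported here.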

Additional observations from a re-analysis of the deposited data

Results flagged for a closer look

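Differences between cold and hot ends, each tested on the difference itself, brought 3 results here. The log2 odds ratio of near over far events, interacting over de-crosslinked, was lower for cold to cold than for hot to hot events by a difference of -0.978 at 5 to 20 kb and of -0.69 at 20 to 200 kb. It was lower than for hot to cold events by a difference of -0.278 at 20 to 200 kb. Over all alternatives these differences ranged from -1.80 to -0.35, from -1.03 to -0.51 and from -0.55 to -0.21. Each compares 1 library with another, without replicates.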

How the results depend on the processing

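The share of cold to cold events within 200 kb (log2 odds ratio 1.71 to 2.35), the 5 distance classes (lowest 0.29, at 100 to 200 kb), the 3 chromosomes (lowest 1.49) and cold to cold minus hot to hot at 20 to 200 kb kept direction and call under every alternative that gave a value. Cold to cold minus hot to cold at 20 to 200 kb missed the threshold without chromosome II, at -0.21. Cold to cold minus hot to hot at 5 to 20 kb missed it at -0.35 without chromosome II, -0.49 with copies merged within 2000 bp and -0.65 with a smallest distance of 10 kb. Cold to cold minus hot to cold at 5 to 20 kb passed it at -0.71 without chromosome I and at -0.55 with cold ends at least 2 kb from a hot region. The cause was not tested. Pairs of windows joined 3 or more times numbered 4 and 78 with windows of 5 and 20 kb and 9 with merging within 2000 bp in the interacting library, and 3 with windows of 20 kb and 0 with that merging in the de-crosslinked library.

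With every pair counted, the log2 odds ratio for spanning a hot region became -0.57 between 10 and 20 kb, 2.26 below 10 kb and -0.50 between 20 and 50 kb, and that for tRNA genes -0.98, all past the threshold. These count copies of 1 junction as independent. Ends 10 kb or more from a hot region passed it with copies merged within 200 bp, at -0.25. Where neither value passed the threshold, a change of sign was not counted. No paired analysis was possible because each group is 1 library. Depth limits the comparisons at short range most, where 43 and 48 de-crosslinked events lie within 10 kb and from 10 to 20 kb. Without a replicate, differences between these libraries cannot be told apart from differences between preparations.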

Other observations

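The 15 genes with most ends of cold to cold contacts, read per gene and not per kb, were 2466 to 15232 bp long. After SPBPJ4664.02, with 10 interacting and 11 de-crosslinked ends in the gene, came sib1 (15232 bp) with 10 and 1. The Rab exchange factor gene ric1 (chromosome I, 4503486 to 4506881) held 7 and 0, overlapping ckb1, a casein kinase subunit gene with 6 and 1. The Rab prenylation gene bet4 (chromosome III, 2152161 to 2157975) held 7 and 2, and sea2, of the SEACAT complex that regulates TOR signalling, 7 and 1. With 6 and 0 each came bgs1, a glucan synthase gene of septum and spore wall, mit1, a chromatin remodeller of the SHREC complex, and toe2. The genes were ranked by their interacting ends, which sets their excess.

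Further pairs of windows with 3 interacting events, left out above by the order of ties, began with ecm29, joined to pik3, sin1 and mid2 over 7.61 to 15.2 kb, with 0 de-crosslinked events. In another, mit1 was joined to ilv1 in 2 events of 5 and 15 pairs and to a place next to SPBP35G2.04C in 1 event of 17 pairs, again with 0 de-crosslinked events. The RNA polymerase III gene rpc1 was joined to ptp4 in 2 events over 26.7 and 27.4 kb. The exocyst gene sec15 was joined to SPCC1672.09 and SPCC1672.11C over 13.1 and 8.75 kb. The ATPase gene abo2 was joined to ist2 by 2 interacting events of 9 and 6 pairs and 1 de-crosslinked event of 4 pairs.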
